A study of Mus musculus with 21 samples.

Results

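The 7 mouse rhabdomyosarcomas with the highest and the 7 with the lowest expression of 4 skeletal myogenic genes were compared here, 14 of the 21 tumors of the series. All 21 tumors were ranked by the mean log2 signal of Myod1, Myog, Myf5 and Pax7, and the sides were chosen from that ranking, called myogenic-high and myogenic-low, with the 7 tumors between them kept as a reference outside the comparison. Each tumor was measured on its own expression array, and every value below is a log2 signal, so that a difference of 1 is a doubling. The tumors came from trunk and limb of 2 genotypes: NPE mice are Neu1+/-/Ptch1+/-/ETV7 TG+/- (14 tumors) and PE mice are Ptch1+/-/ETV7 TG+/- (7 tumors). Both genotypes therefore carry 1 mutant Ptch1 allele and the human ETV7 transgene, and only NPE mice also lack a copy of Neu1. Neu1+/- mice of the FVB/NJ strain had been crossed with mice of a mixed background, animals of both sexes were used, and tumor-bearing NPE and PE mice were not always littermates. The labels give no age, sex or site for a tumor. Nothing in the labels tells whether any tumors came from 1 animal, so p-values measure the spread between these tumors.

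Rhabdomyosarcoma is a tumor of cells that have entered the skeletal muscle lineage without completing it. Pax7 marks satellite cells, the stem cells of muscle, and the related Pax3 marks embryonic muscle progenitors. Myf5 and Myod1 are basic helix-loop-helix transcription factors that commit cells to the myoblast fate, and Myog, of the same family, drives myoblasts to leave the cell cycle, fuse and build sarcomeres. These factors bind a short DNA element, the E-box, and their targets run from embryonic myosin and the fetal acetylcholine receptor to the contractile proteins of adult fibres. Ptch1 encodes the receptor that restrains the hedgehog pathway, and Neu1 encodes a lysosomal sialidase.

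The score, the mean over the 4 genes, was 8.78 in PE tumor 4, 8.62 in NPE tumor 13, 8.59 in PE tumor 3, 8.56 in NPE tumor 11, 8.48 in NPE tumor 12, 8.41 in PE tumor 2 and 8.37 in NPE tumor 7. On the low side it was 7.998 in NPE tumor 9, 7.96 in PE tumor 7, 7.59 in NPE tumor 6, 7.01 in NPE tumor 4, 7.01 in NPE tumor 2, 6.22 in NPE tumor 1 and 5.23 in NPE tumor 3. The high side was compact and the low side was not, with an SD of 0.14 against 1.00. The limits of the sides fell in a continuum: the first tumor outside the high side, PE tumor 1, had 8.34 and the first outside the low side, NPE tumor 5, had 8.06. The sides thus divide a continuous ranking.

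Each gene of the score is given as a description, without a test, because it chose the sides. Myf5 had the widest range: its lowest, median and highest signals were 8.66, 9.17 and 9.81 in myogenic-high and 3.53, 7.02 and 7.89 in myogenic-low tumors. For Myod1 these were 8.47, 8.81 and 8.96 against 6.49, 7.75 and 8.62. For Myog they were 9.37, 9.73 and 9.96 against 6.08, 9.04 and 9.81. For Pax7 they were 6.07, 6.501 and 6.93 against 4.62, 5.22 and 6.44. Only Myf5 did not overlap between the sides, and Myog was as high in the low-side tumors PE tumor 7 (9.81) and NPE tumor 9 (9.77) as on the high side. As a description over the 21 tumors, which share normalization, the genes correlated at r = 0.78 to 0.92 in pairs. Their mean signals stood at the 92.4th, 97.5th, 90.0th and 60.5th percentile for Myod1, Myog, Myf5 and Pax7. The reference was the other genes with a symbol, each taken at its highest probe set. Des, the muscle intermediate filament, had 10.42, 10.64 and 10.87 in myogenic-high and 9.27, 10.36 and 10.85 in myogenic-low tumors, so this muscle marker was well expressed on both sides.

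**Figure D1:**
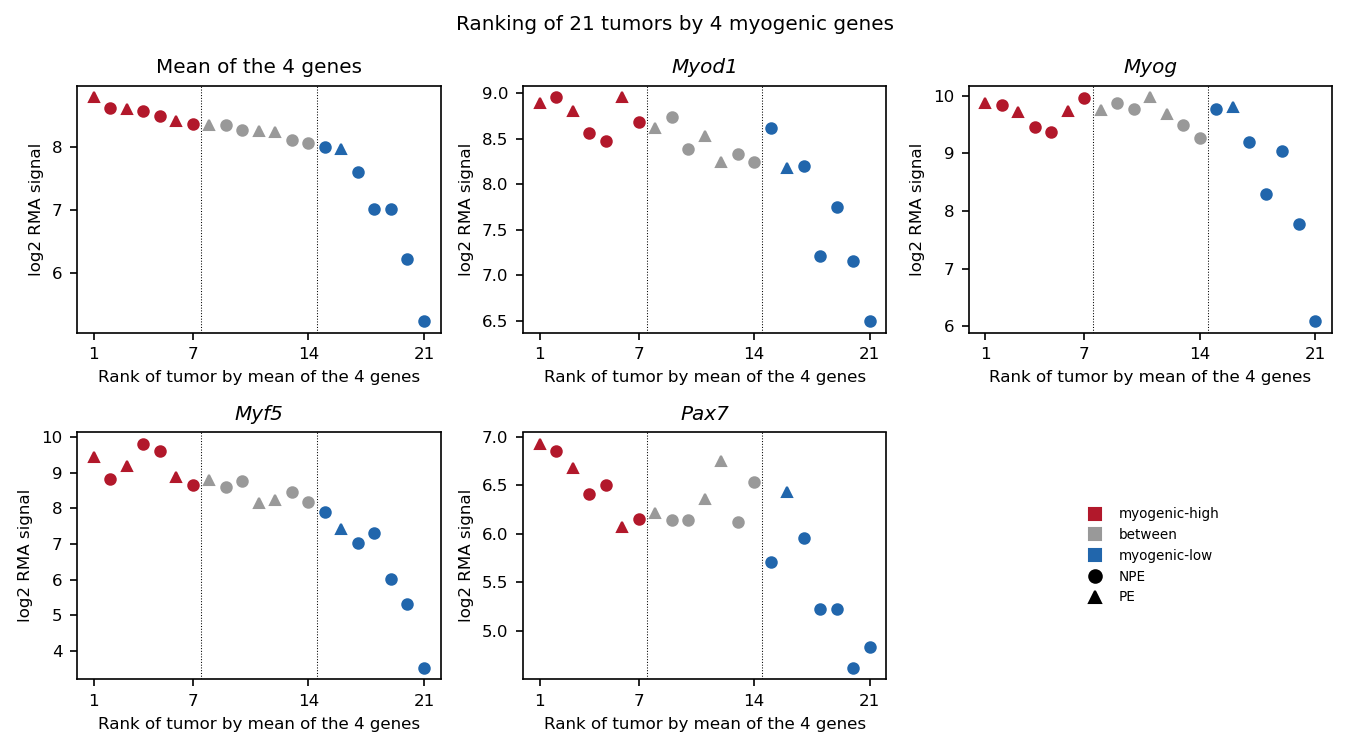
Log2 signal of the 4 genes and their mean (y axes) in the 21 tumors in rank order (x axes), with circles for NPE and triangles for PE tumors and dotted lines at the limits of the sides. The 7 myogenic-high tumors lie between 8.37 and 8.78 on the mean, whereas the myogenic-low tumors spread from 5.23 to 7.998.

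The myogenic-high side held 4 NPE and 3 PE tumors, the myogenic-low side 6 NPE and 1 PE tumor, and the tumors between 4 and 3. This make-up did not differ past the threshold (Fisher's exact test, two-sided, p = 0.559). Each tumor title ends in a number of unstated meaning, the numbers fall in 3 runs, and the sides were unevenly spread over them: 1, 3 and 3 myogenic-high tumors had numbers from 1 to 10, from 18 to 23 and from 28 to 35, against 5, 0 and 2 myogenic-low tumors. The mean of 3 Y-linked genes was at most 2.71 in 1 myogenic-high, 3 myogenic-low and 4 intermediate tumors and at least 6.32 in the rest. Arrays were alike in signal, with medians of 5.32 to 5.38 on the high and 5.36 to 5.41 on the low side and 86.5% to 88.6% and 85.8% to 90.2% of probe sets above background. NPE tumors 11 and 12, both myogenic-high, resembled each other most of all tumors (r = 0.71 of their deviations from the gene means). With these tumors averaged as 1, no probe set passed the threshold used below (1228 higher and 1441 lower unadjusted).

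Across 22202 probe sets, 31 were higher (0.140%) and 19 lower (0.0856%) in myogenic-high tumors at an adjusted p under 0.05 (limma, Benjamini-Hochberg), and these are the genes said to have risen or fallen below. They include 29 and 16 genes with a symbol. The median difference over all probe sets was -0.01. At an unadjusted p under 0.05 there were 1493 higher (6.72%) and 1812 lower (8.16%), and centring the arrays on their medians, which moved the median of all probe sets to 0.02, turned this into 1933 and 1420, so the balance of directions across all genes has no firm reading. Signals did not overlap between the sides at all for 55 higher (0.248%) and 46 lower probe sets (0.207%). The calls stood near the threshold, the lowest adjusted p being 0.0241.

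With genotype as a covariate no probe set passed, the lowest adjusted p being 0.0759 among the 50, with 1275 higher and 1407 lower at an unadjusted p under 0.05. All 50 kept their direction, and their differences were 0.97 times the unadjusted ones in the median and at least 0.86 times. Among NPE tumors alone, 4 against 6, none passed either (lowest adjusted p of the 50, 0.100; 1222 and 1571 unadjusted), again with all 50 in the same direction and a median ratio of 1.03. The 50 also kept their direction within title numbers 1 to 10 (1 against 5 tumors) and 28 to 35 (3 against 2 tumors), where no test was made. Because the 50 were chosen in these same tumors, a kept direction was largely fixed in advance and is no separate support. Leaving out any of PE tumors 2 and 4 and NPE tumors 2, 11 and 12 singly removed every call, while leaving out NPE tumor 9 or PE tumor 7, the low-side tumors nearest the limit, gave 259 and 232 or 252 and 357. Whether the difference is the same in both genotypes was not tested, since the low side has 1 PE tumor.

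**Figure D2:**
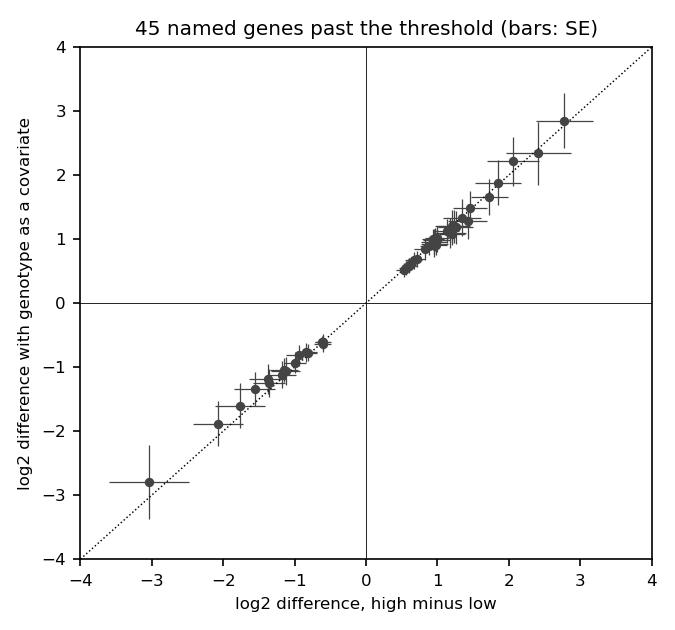
Log2 difference of the 45 named genes past the threshold, without (x axis) and with genotype as a covariate (y axis), bars showing the standard error and the dotted line equality. The points lie along the line, and no difference changes sign, but the genes were chosen in these same tumors.

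Among the genes that rose were transcription factors of axial and limb patterning. Hoxc12, a posterior homeobox gene, had a lowest, median and highest signal of 6.29, 7.56 and 8.299 in myogenic-high and 3.79, 4.31 and 6.57 in myogenic-low tumors, overlapping through NPE tumor 7 on the high side and NPE tumor 9 on the low side. Its difference was 2.78 (SE 0.399, adjusted p = 0.0241). Dmrt2, a doublesex-related factor of the dermomyotome that acts upstream of Myf5 in the mouse embryo, had 4.88, 6.22 and 6.36 against 3.44, 4.24 and 4.93, a difference of 1.73 (SE 0.26, adjusted p = 0.0241), and only NPE tumor 9 on the low side and NPE tumor 7 on the high side overlapped. The Hox genes went both ways: of 33 measured, 12 were higher and 21 lower, 3 and 6 at an unadjusted p under 0.05, with a median of -0.09. The posterior Hoxc13 (0.92, adjusted p = 0.0862) and Hoxa13 (0.700, adjusted p = 0.0880) were higher without passing. Hoxd8 was lower without passing, from 4.90 to 6.67 in myogenic-high and from 5.83 to 7.48 in myogenic-low tumors. The site of each tumor, trunk or limb, is not in the labels, and its part in these position-dependent genes was not tested.

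Several genes that rose encode mitochondrial or metabolic proteins. Whether such genes rose more often than others was not tested. Ndufa4l2, a mitochondrial protein induced in hypoxia, had 7.43, 7.69 and 8.83 in myogenic-high and 6.04, 6.38 and 7.02 in myogenic-low tumors with no overlap, a difference of 1.45 (SE 0.24, adjusted p = 0.0270). Gamt, which completes creatine synthesis, had 7.72, 8.01 and 8.86 against 6.19, 7.103 and 7.15, again without overlap (1.203, SE 0.18, adjusted p = 0.0241). Mcu, the pore of the mitochondrial calcium uniporter, rose by 1.34 (SE 0.26) and Shmt2, which feeds mitochondrial one-carbon metabolism from serine, by 1.17 (SE 0.23). Asparagine synthetase, Asns, rose by 0.99 (SE 0.17), and Atp5d, a subunit of ATP synthase, by 0.56 (SE 0.101), both without overlap. Ppp1r3b, which targets a phosphatase to glycogen, rose by 0.98 (SE 0.16). Of these genes, Ndufa4l2, Gamt, Mcu, Shmt2 and Atp5d lie on chromosome 10, while Asns and Ppp1r3b lie on chromosomes 6 and 8. Chromosome 10 genes with a mean signal above 5 had a median difference of 0.23. The part of that shift in the rise of these genes was not tested.

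Esr1, the estrogen receptor alpha, had 7.404, 7.97 and 8.22 in myogenic-high and 6.22, 6.81 and 7.08 in myogenic-low tumors, without overlap and with a difference of 1.13 (SE 0.17, adjusted p = 0.0241). Igf2r, which clears the growth factor Igf2, had 9.46, 9.75 and 10.01 against 8.23, 8.61 and 9.55 and rose by 0.96 (SE 0.19), PE tumor 7 being the low-side tumor that overlapped. The AP-1 subunit Fosl1 rose by 0.82 (SE 0.15) and the scaffold Cass4 by 0.88 (SE 0.13). Prune2 had one of the largest separated differences, 9.13, 9.57 and 9.94 against 6.15, 7.598 and 8.98 (1.85, SE 0.32, adjusted p = 0.0289). Further genes that rose were Gm15881 (2.41), Tcp11x2 (2.06), the cadherin Cdh23 (1.43), the GTPase Rhoh (1.26), Rtl3 (1.23), Scn3a (1.2) and the peptidase Prep (0.999).

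The genes that fell were led by secreted proteins. Hp, haptoglobin, an acute-phase plasma protein that fat also makes, had 4.14, 5.02 and 7.86 in myogenic-high and 6.800, 8.68 and 9.93 in myogenic-low tumors, NPE tumor 7 being the high tumor that overlapped, and a difference of -3.04 (SE 0.56, adjusted p = 0.0437). Agt, angiotensinogen, the precursor of angiotensin, had 6.23, 6.805 and 7.48 against 7.34, 9.13 and 10.46 (-2.07, SE 0.35, adjusted p = 0.0270). Efemp1, a fibulin of the extracellular matrix, fell with a difference of -1.76 (SE 0.34, adjusted p = 0.0492). Aldh1a1, which makes retinoic acid, had 6.46, 6.96 and 7.48 against 7.49, 8.63 and 9.42 and did not overlap (-1.56, SE 0.29, adjusted p = 0.0437), though the 2 nearest tumors were 7.48 and 7.49.

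Membrane and regulatory genes fell beside them. The potassium channel subunit Kcns3 (-1.36), the transcription factor Hlf (-1.13), the ceramide synthase Cers4 (-0.998), the phospholipase C relative Plcl1 (-0.81), the G protein subunit Gnai1 (-0.61) and the hydrolase Abhd14b (-0.62) had no overlap between the sides. Lonrf2 (-0.84) did not overlap either. The semaphorin Sema5a (-1.38), Zfp521 (-1.18), the polarity gene Pard3b (-1.15) and Fam171a1 (-0.94) overlapped through 1 tumor on each side. Abhd14b had 5.84, 5.899 and 6.02 against 6.297, 6.54 and 6.84, and its adjusted p was 0.0241.

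**Figure D3:**
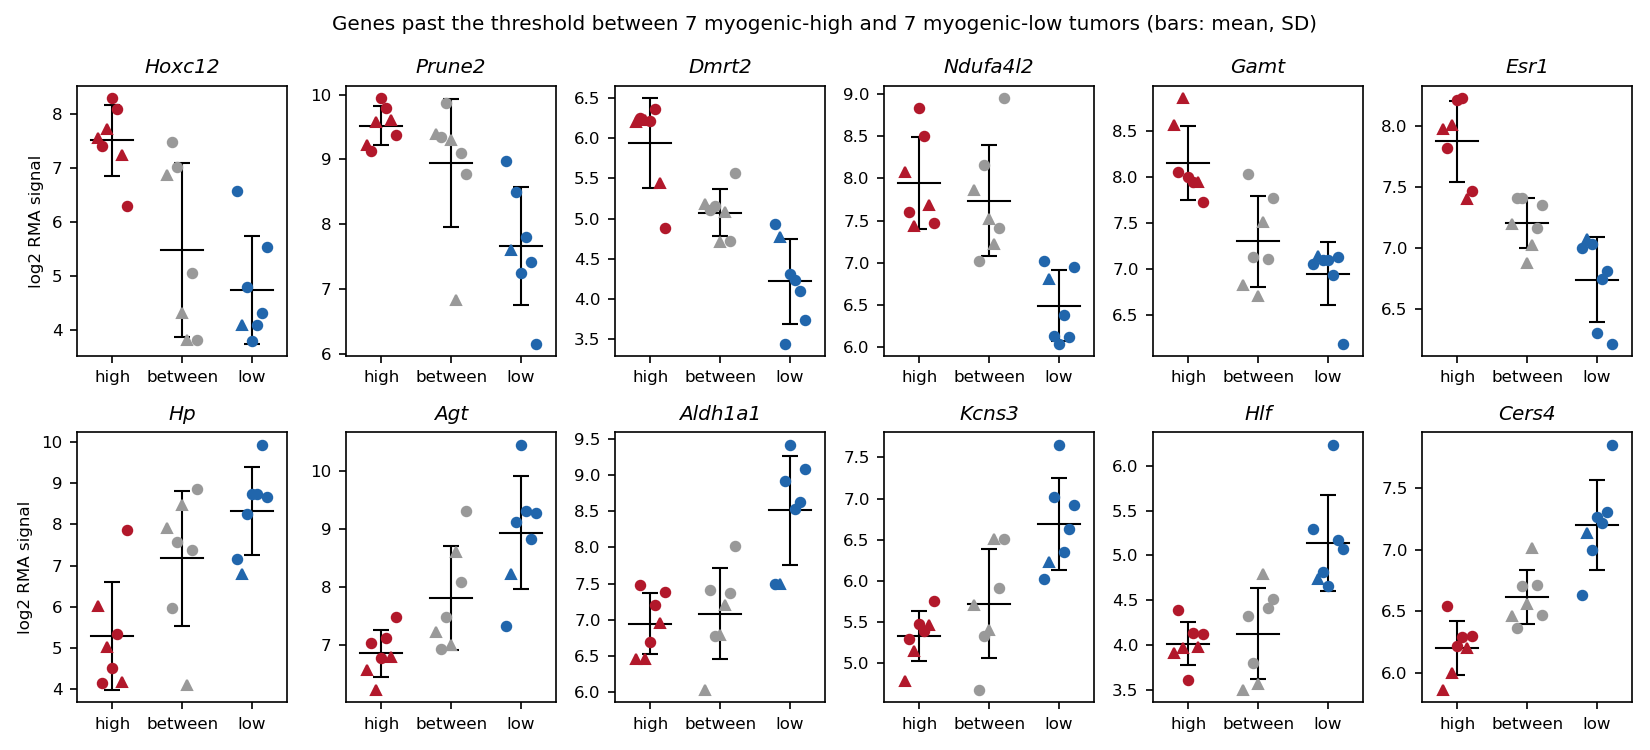
Log2 signal (y axes) of 12 genes past the threshold in the myogenic-high, the 7 intermediate and the myogenic-low tumors, circles for NPE and triangles for PE, with mean and SD bars. For Esr1 the 7 intermediate tumors had 6.87, 7.19 and 7.41 as lowest, median and highest, and their median lay between those of the sides.

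With the 7 intermediate tumors in the fit, high minus low passed for 236 higher and 262 lower probe sets, including all 50, but high minus middle passed for none (825 higher and 547 lower unadjusted, 49 of the 50 in the same direction) and middle minus low for 1 lower (1202 and 1623 unadjusted). In the median, 0.44 of the difference of the 50 lay between high and middle and 0.56 between middle and low. For Esr1 the first part was 0.67 and the second 0.46 on the log2 scale.

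The myogenic lists show which parts of the muscle programme went with the score. None of the members of the 6 myogenic lists passed the adjusted threshold, so the following are counts and sizes, to be read against the 6.72% and 8.16% of all probe sets at an unadjusted p under 0.05. Members of a list vary together across tumors and are not independent. Among 25 other myogenic transcription factors, 16 were higher and 9 lower, 7 and 4 of them at an unadjusted p under 0.05. Pax3 had 5.501, 6.26 and 6.87 against 4.99, 5.21 and 6.24 (0.85, SE 0.22, adjusted p = 0.0924), Tead4, a factor of the Hippo pathway that binds muscle promoters, 5.56, 5.71 and 6.51 against 4.28, 4.79 and 5.68 (0.91, SE 0.21, adjusted p = 0.0619), and Myf6, the fourth myogenic factor, 7.89, 8.26 and 9.42 against 4.85, 7.71 and 8.13 (1.45, SE 0.46, adjusted p = 0.146). Mef2c, a partner of the myogenic factors, had 10.47, 10.76 and 10.99 against 7.99, 10.72 and 11.08, and apart from NPE tumor 3 (7.99) its low-side tumors had at least 9.80. In the other direction stood Tcf21 (-1.88, SE 0.56, adjusted p = 0.123), a transcription factor of mesenchymal progenitors, and Dach1 (-1.03, SE 0.26, adjusted p = 0.0822).

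Genes that restrain myogenic factors went both ways. Of 20 measured, 12 were higher and 8 lower, 6 and 3 at an unadjusted p under 0.05. Id1, which captures the partner proteins of Myod1, had 9.21, 9.45 and 9.64 against 8.33, 8.796 and 9.24 (0.698, SE 0.15, adjusted p = 0.0539), and Bhlhe40, a hypoxia-induced repressor, 9.61, 9.998 and 10.31 against 8.500, 9.25 and 9.72 (0.78, SE 0.16, adjusted p = 0.0536).

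Of 23 genes of the satellite cell and myoblast surface, 17 were higher, 10 at an unadjusted p under 0.05, and 2 were lower at that level. Cdh15, M-cadherin, had 8.09, 8.29 and 8.62 on the high side and 5.89, 6.65 and 8.62 on the low side, where PE tumor 7 matched the highest high-side tumor (1.26, SE 0.31, adjusted p = 0.0822). Itga7, the laminin receptor subunit of myoblasts, differed by 1.23 (SE 0.29, adjusted p = 0.0674) and the imprinted gene Peg3 by 1.14 (SE 0.26, adjusted p = 0.0666). Of 25 genes of myoblast fusion 16 were higher, yet the fusogens themselves overlapped widely: Mymk had 10.06, 10.73 and 10.98 against 7.65, 10.47 and 11.11 and Mymx 5.55, 6.700 and 7.85 against 5.19, 5.93 and 7.99. The membrane repair genes Cav3 (1.34, SE 0.29, adjusted p = 0.0539) and Dysf (0.82, SE 0.202, adjusted p = 0.0816) of that list were higher.

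Genes of the embryonic sarcomere and of the fetal neuromuscular junction were higher almost without exception. Of 31 measured, 30 were higher and 16 had an unadjusted p under 0.05, with a median difference of 0.76. Their mean per tumor was 8.96 to 9.46 in myogenic-high and 6.39 to 9.37 in myogenic-low tumors, and 6 low-side tumors were below every high-side tumor. The exception was NPE tumor 9, with 9.37, whereas NPE tumor 3, with 6.39, was more than 1 below all others. Tnnt1, slow troponin T, did not overlap, 10.64, 10.87 and 11.13 against 8.800, 10.22 and 10.63 (0.88, SE 0.22, adjusted p = 0.0816). The light chain gene Myl6b differed by 1.73 (SE 0.47, adjusted p = 0.0939) and Csrp3, a Z-disc protein, by 1.51 (SE 0.41, adjusted p = 0.0939). Embryonic myosin, Myh3, had 10.48, 10.800 and 11.33 against 6.53, 10.14 and 11.07 (1.201, SE 0.52, adjusted p = 0.287), and the fetal acetylcholine receptor subunit Chrng 8.74, 9.25 and 9.897 against 5.28, 8.22 and 9.59 (1.297, SE 0.49, adjusted p = 0.224). For the delta subunit Chrnd the difference was 1.64 (SE 0.69, adjusted p = 0.272) and for the alpha subunit Chrna1 1.105 (SE 0.54, adjusted p = 0.361). Perinatal myosin, Myh8, went with none of this: it had 11.11, 11.28 and 11.57 on the high and 8.55, 11.700 and 12.16 on the low side (0.18, SE 0.44, adjusted p = 0.908), and 4 low-side tumors exceeded every high-side tumor. Without NPE tumor 3 the median of the list was 0.47.

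Genes of adult fibres divided. Of 50 measured, 34 were higher and 16 lower, 7 and 6 at an unadjusted p under 0.05, and the median difference was 0.42. It was 0.07 without NPE tumor 3 alone and -0.105 for middle minus low. The slow myosin Myh7 had 9.65, 10.600 and 10.99 in myogenic-high and 6.25, 9.403 and 10.22 in myogenic-low tumors (1.41, SE 0.49, adjusted p = 0.184). Some genes of adult fast fibres had lower signals on the high side, none past the threshold. Pvalb, the calcium buffer of fast fibres, had 4.64, 5.03 and 8.34 against 5.14, 9.45 and 11.25 (-3.399, SE 0.85, adjusted p = 0.0822), fast IIB myosin Myh4 8.35, 9.52 and 10.47 against 8.73, 11.32 and 12.18 (-1.47, SE 0.52, adjusted p = 0.198), Myoz1 a difference of -1.28 (SE 0.46, adjusted p = 0.196), and muscle creatine kinase Ckm 7.63, 8.06 and 8.65 against 7.86, 9.29 and 11.15 (-1.16, SE 0.43, adjusted p = 0.217). With the adipocyte mean as a covariate these differences were -1.92 for Pvalb, -0.75 for Myh4, -0.28 for Myoz1 and -0.22 for Ckm. Skeletal actin, Acta1, overlapped at 11.82, 12.02 and 12.25 against 9.72, 11.98 and 12.300. The list mean divided the low-side tumors: in NPE tumors 1, 2, 6 and 9 it was 10.27, 9.78, 9.51 and 9.51, above every high-side tumor (8.88 to 9.46), and in NPE tumor 3 and PE tumor 7 it was 6.81 and 8.13, below all of them, while NPE tumor 4 had 9.12, within their range. In bulk tissue a smaller number of cells of a type and less RNA per cell cannot be told apart.

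The promoters of these muscle genes are shown because myogenic factors act through the E-box, of which CAGCTG is one form. The 250 bases before each annotated start were searched for CAGCTG, which reads the same on both strands, in RefSeq promoters of GRCm38.p6. It was present in 12 of 32 promoters of the embryonic list (27 of its genes matched, 37.5%), in 21 of 42 of the mature fibre list (35 genes matched, 50.0%) and in 1 of 17 of the satellite cell and myoblast surface list (14 genes matched, 5.88%), against 4271 of all 32851 promoters (13.001%). A match describes the letters and is not a site shown to be bound. The lists were written as muscle genes, so these shares describe the lists and not the difference between the sides. The 2 members of the embryonic list with the smallest p and a match, Chrng and Klhl40, a sarcomere protein stabiliser that differed by 0.69 (adjusted p = 0.281), are printed with CAGCTG in capitals, Chrng from chr1:87205561-87205810 and Klhl40 from chr9:121777357-121777606, both on the plus strand.
Chrng: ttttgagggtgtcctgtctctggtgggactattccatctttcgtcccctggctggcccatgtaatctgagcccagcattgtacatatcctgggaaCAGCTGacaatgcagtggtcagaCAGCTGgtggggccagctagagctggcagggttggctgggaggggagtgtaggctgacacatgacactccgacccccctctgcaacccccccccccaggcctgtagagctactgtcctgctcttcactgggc
Klhl40: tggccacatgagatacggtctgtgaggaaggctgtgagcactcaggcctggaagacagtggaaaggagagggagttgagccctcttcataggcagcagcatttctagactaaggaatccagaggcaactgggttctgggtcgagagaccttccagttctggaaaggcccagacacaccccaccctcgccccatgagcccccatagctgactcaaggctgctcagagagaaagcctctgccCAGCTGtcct
Chrng has 2 matches and Klhl40 1, the latter close to the annotated start.

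Adipocyte genes were lower throughout in myogenic-high tumors. All 20 measured were lower, 12 at an unadjusted p under 0.05, with a median of -1.49, the most negative of the 38 lists. The list mean was 5.66 to 7.04 in myogenic-high and 5.58 to 9.59 in myogenic-low tumors. NPE tumor 7, with 7.04, stood above the other 6 high-side tumors, which had at most 5.97, and PE tumor 7, with 5.58, was the low-side tumor below them all. Adipoq, adiponectin, had 3.31, 4.34 and 7.69 against 4.07, 7.91 and 10.96 (-3.21, SE 0.96, adjusted p = 0.126), the fatty acid carrier Fabp4 7.02, 7.94 and 9.81 against 7.96, 9.99 and 11.63 (-1.87, SE 0.57, adjusted p = 0.132), and the lipid droplet gene Plin1 a difference of -2.28 (SE 0.72, adjusted p = 0.147). The adipogenic regulator Pparg differed by -1.28 (SE 0.55, adjusted p = 0.288). The highest list means, 9.59 and 9.40, were in NPE tumors 1 and 2, which also had the highest Pvalb and Myh4 of the myogenic-low tumors. Without both, the list's median was -0.66, and none of the 22202 probe sets passed (1318 higher and 1671 lower unadjusted).

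Smooth muscle and pericyte genes were lower as well. Of 19 measured, 15 were lower, 11 at an unadjusted p under 0.05, with a median of -0.497, and 5 low-side tumors had a list mean above every high-side tumor (7.53 to 8.74 against 7.297 to 7.997). Smooth muscle myosin, Myh11, had 5.77, 6.800 and 7.92 in myogenic-high and 6.83, 8.88 and 10.24 in myogenic-low tumors (-2.04, SE 0.46, adjusted p = 0.0604). Calponin, Cnn1, had 5.08, 5.57 and 7.78 against 6.06, 8.96 and 10.56 (-2.74, SE 0.65, adjusted p = 0.0712) and Actg2, gamma smooth muscle actin, differed by -1.95 (SE 0.503, adjusted p = 0.0893). Myocd, the master coactivator of smooth muscle genes, differed by -1.31 (SE 0.502, adjusted p = 0.228), and Acta2, which rhabdomyoblasts and myofibroblasts also make, by -0.497 (SE 0.21, adjusted p = 0.269). With the adipocyte mean as a covariate the median of this list was -0.46.

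The lists of other cell types had medians nearer to 0. Of 20 endothelial genes 19 were lower (9 at an unadjusted p under 0.05, median -0.38), with Ptprb at -0.66 (SE 0.18, adjusted p = 0.101). Of 21 macrophage genes 20 were lower (5, median -0.28), led by the scavenger receptor Cd163 (-1.01, SE 0.27, adjusted p = 0.0939), and this median was -0.14 without NPE tumor 3 and 0.00 without NPE tumors 11 and 12. Of 22 lymphocyte genes 17 were lower (6, median -0.104), with the T cell receptor subunit Cd3e at -1.06 (SE 0.396, adjusted p = 0.217), and all 9 class II genes were lower (2, median -0.43). The median of 29 collagen and matrix genes was -0.05, and members went both ways, as dermatopontin, Dpt (-1.91, SE 0.399, adjusted p = 0.0539), and fibronectin, Fn1 (1.08, SE 0.26, adjusted p = 0.0674), show. Nerve and keratinocyte lists had medians of -0.02 and 0.03. The part of these other cells in the remaining differences was not tested beyond the adipocyte covariate, with which no probe set passed (815 higher and 894 lower unadjusted), all 50 kept their direction, and their differences were 0.83 times the unadjusted ones in the median and at least 0.596 times. Among the named genes past the threshold, Hp and Cdh23 moved most relative to the size of their differences, to -1.92 and 0.85. With that covariate the endothelial, lymphocyte and class II medians were -0.27, -0.01 and -0.22, whereas the macrophage median, -0.298, did not move toward 0. Of 13 neutrophil genes 11 were lower, with 1 higher and 0 lower at an unadjusted p under 0.05. Their median was -0.29, -0.44 with that covariate and 0.08 without NPE tumor 3.

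**Figure D4:**
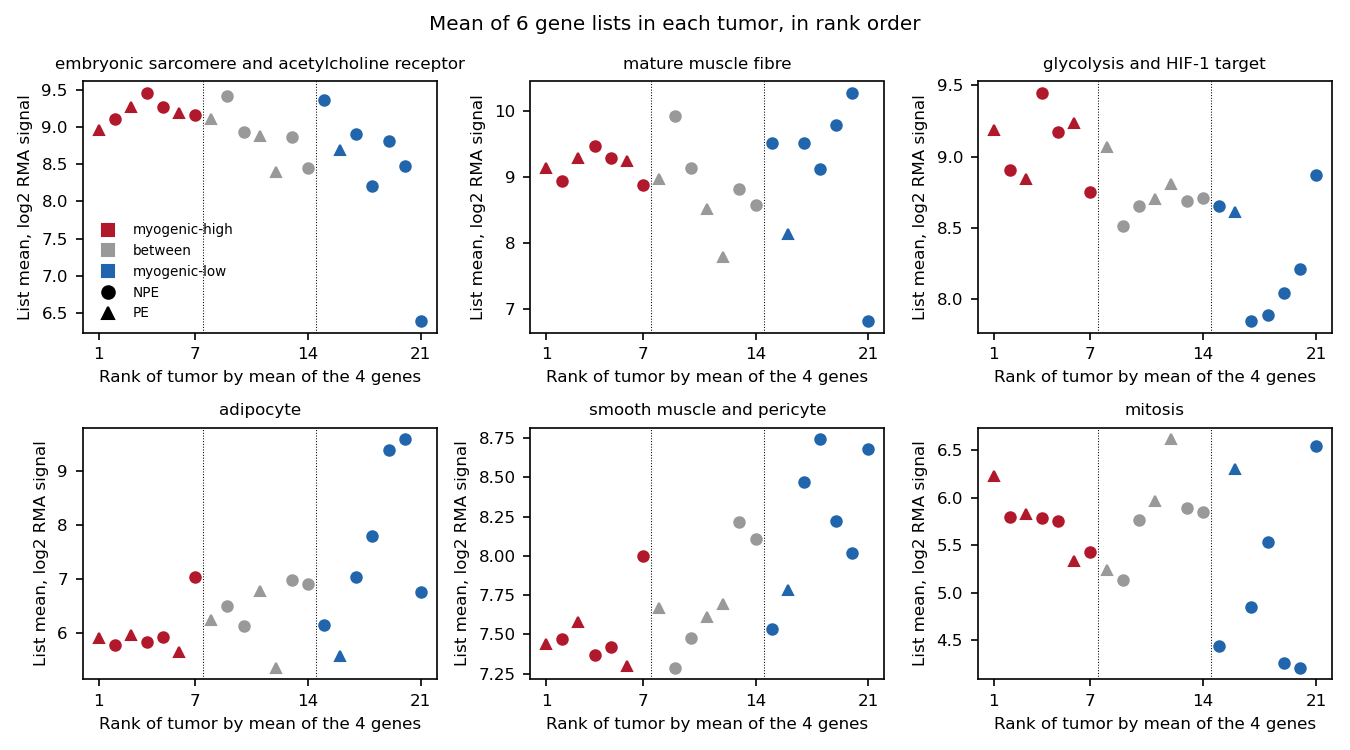
Mean log2 signal of 6 gene lists (y axes) in the 21 tumors in rank order (x axes), circles for NPE and triangles for PE tumors, dotted lines at the limits of the sides. The low side spreads more than the high side in every panel, with NPE tumor 3 lowest for both muscle lists and NPE tumors 1 and 2 highest for adipocyte genes.

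Glycolytic and HIF-1 target genes were higher in myogenic-high tumors as a class. HIF-1 is the oxygen-sensing transcription factor that turns on glycolysis in hypoxia. All 24 measured were higher and 19 had an unadjusted p under 0.05, with a median of 0.802 against -0.01 over all probe sets. The list mean was 8.75, 9.17 and 9.45 as lowest, median and highest in myogenic-high, 8.51, 8.703 and 9.07 in intermediate and 7.85, 8.21 and 8.87 in myogenic-low tumors, and 6 low-side tumors lay below every high-side tumor. The exception was NPE tumor 3, the tumor with the lowest score, at 8.87. Hexokinase, Hk1, had 9.097, 9.23 and 9.72 against 7.68, 8.47 and 9.02 without overlap, a difference of 0.85 (SE 0.17), and its adjusted p, 0.0504, missed the threshold narrowly. The oxygen sensor Egln3 had 9.88, 10.32 and 10.85 against 8.16, 9.18 and 9.98 (1.22, SE 0.26, adjusted p = 0.0539), the phosphofructokinase Pfkp differed by 0.92 (SE 0.22, adjusted p = 0.0799) and Ankrd37 by 1.14 (SE 0.29, adjusted p = 0.0822). The median was 0.82 with genotype as a covariate, 0.79 in NPE tumors alone, 0.69 without NPE tumors 1 and 2 and 0.53 with the adipocyte mean as a covariate. It was 0.34 for high minus middle, and lowest, 0.29, with the score as a continuous variable over 21 tumors.

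The letters ACGTG, part of the element that HIF-1 binds, were searched in the same promoters on both strands (CACGT on the other). They were present in 16 of 34 promoters of the glycolysis list (25 genes matched, 47.1%) against 16.6% of all promoters and 4 of 32 of the embryonic muscle list. The glycolysis list was written to hold HIF-1 targets, so a high share was largely fixed in advance. It describes the list and not the difference between the sides. The 2 members with the smallest p and a match are printed with these letters in capitals, Egln3 from chr12:54203875-54204124 and Ankrd37 from chr8:45999851-46000100, both on the minus strand.
Egln3: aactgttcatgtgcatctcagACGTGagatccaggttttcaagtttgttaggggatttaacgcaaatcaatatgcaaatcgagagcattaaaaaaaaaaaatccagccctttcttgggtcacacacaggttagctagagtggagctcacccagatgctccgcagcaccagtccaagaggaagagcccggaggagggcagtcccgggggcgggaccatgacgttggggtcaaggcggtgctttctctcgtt
Ankrd37: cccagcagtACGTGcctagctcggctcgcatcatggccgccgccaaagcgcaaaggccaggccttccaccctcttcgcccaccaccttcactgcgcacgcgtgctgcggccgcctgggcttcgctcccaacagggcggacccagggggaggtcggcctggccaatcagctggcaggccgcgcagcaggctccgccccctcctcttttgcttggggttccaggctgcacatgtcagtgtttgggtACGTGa
Egln3 has 1 match and Ankrd37 2, of which the second is close to the annotated start.

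Proliferation genes were higher in the median but overlapped widely. All 28 mitosis genes were higher, with a median of 0.52, though 5 had an unadjusted p under 0.05, and 22 of 28 DNA replication genes were higher with a median of 0.24. The mitosis mean was 5.33 to 6.23 in myogenic-high tumors and 4.21 to 6.55 in myogenic-low tumors, where NPE tumor 3 and PE tumor 7 had 6.55 and 6.31, above every high-side tumor, and NPE tumors 1, 2 and 9 had 4.21, 4.26 and 4.44. The kinase Plk1 had 6.603, 6.84 and 7.37 against 4.79, 5.41 and 7.45 (0.95, SE 0.37, adjusted p = 0.232), and the ubiquitin ligase partner Ube2c, the kinesin Kif2c and the ribonucleotide reductase subunit Rrm2 differed by 1.004 (SE 0.44, adjusted p = 0.294), 1.07 (SE 0.41, adjusted p = 0.224) and 1.22 (SE 0.36, adjusted p = 0.125). With the adipocyte mean as a covariate the medians were -0.02 for mitosis and -0.08 for DNA replication, and without NPE tumors 1 and 2 they were 0.18 and 0.04. The mitosis median was 0.19 with the title number ranges as a block. It was 0.90 within title numbers 1 to 10 (1 against 5 tumors) and -0.24 within 28 to 35 (3 against 2 tumors). These directions differed, but the groups are small and no test was made within them.

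Several hedgehog targets had lower signals in myogenic-high tumors. Of 22 genes of the pathway 14 were lower and 8 higher, 6 and 1 at an unadjusted p under 0.05, with a median of -0.14. The 1 higher at that level was Foxc2 (0.61, SE 0.17, adjusted p = 0.112). Hhip, a target of the pathway that binds its ligands, had 7.47, 8.87 and 10.15 in myogenic-high and 9.67, 11.07 and 11.74 in myogenic-low tumors (-2.101, SE 0.46, adjusted p = 0.0573), where 5 low-side tumors exceeded every high-side tumor. The transcription factor and target Gli1 had 6.28, 6.57 and 7.15 against 6.72, 7.19 and 8.03 (-0.78, SE 0.22, adjusted p = 0.100), Gli2 differed by -0.45 (SE 0.23, adjusted p = 0.384) and Ptch1 by -0.43 (SE 0.25, adjusted p = 0.460).

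Growth factor receptors of muscle and rhabdomyosarcoma went both ways, 13 of 25 higher and 12 lower with 6 each at an unadjusted p under 0.05. Erbb3, a receptor partner for neuregulin, had 7.05, 7.34 and 7.85 in myogenic-high and 4.17, 6.27 and 6.97 in myogenic-low tumors without overlap (1.65, SE 0.35, adjusted p = 0.0539). Fgfr4, an FGF receptor of myoblasts, had 6.15, 7.397 and 8.05 against 4.196, 5.82 and 7.52 (1.54, SE 0.43, adjusted p = 0.106), whereas the neurotrophin receptor Ntrk2 had 2.94, 3.18 and 4.07 against 3.41, 5.28 and 7.19 (-1.99, SE 0.49, adjusted p = 0.0816). Of 30 TGF-beta, activin and BMP genes 20 were higher and 10 lower, 10 and 4 at an unadjusted p under 0.05, with a median of 0.13. Among the lower ones was the TGF-beta coreceptor Tgfbr3 (-1.47, SE 0.35, adjusted p = 0.0758).

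Of 21 metalloproteinase genes and their inhibitors 12 were higher and 9 lower, 6 and 3 at an unadjusted p under 0.05. Mmp10 had 8.502, 9.03 and 9.91 against 3.26, 5.71 and 9.16 (2.83, SE 0.84, adjusted p = 0.124), with 3.26, 4.19 and 4.32 in NPE tumors 1, 6 and 2 and at least 8.39 in PE tumor 7 and NPE tumors 3 and 9. Mmp13 differed by 1.89 (SE 0.57, adjusted p = 0.132) and Mmp9 by 2.06 (SE 0.71, adjusted p = 0.184). Mmp16, the member with the smallest p, went the other way (-0.91, SE 0.23, adjusted p = 0.0822), as did the inhibitor Timp3 (-0.43, SE 0.13, adjusted p = 0.132). With the adipocyte mean as a covariate the differences were 1.035 for Mmp10, 0.75 for Mmp13 and 0.95 for Mmp9. The chemokine Ccl11 (-1.495, SE 0.37, adjusted p = 0.0822) and the interferon-induced Bst2 (-2.001, SE 0.46, adjusted p = 0.0666) were lower.

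Neu1 itself, the gene that distinguishes the genotypes, had 6.31, 6.66 and 6.92 in myogenic-high and 6.04, 6.37 and 6.42 in myogenic-low tumors, which differ in their number of NPE tumors, a difference of 0.299 (SE 0.103, adjusted p = 0.183) and of 0.26 with genotype as a covariate. Of 19 genes of lysosome and exocytosis 7 were higher and 12 lower with a median of -0.02, and the secretory GTPase Rab27a differed by -0.93 (SE 0.19, adjusted p = 0.0536). Myc had 7.64, 8.004 and 8.81 against 6.67, 7.39 and 8.75 (0.65, SE 0.28, adjusted p = 0.297).

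Genes that rose were unevenly placed in the genome. Of the 29 with a symbol, 12 lie on chromosome 10 (41.4%), which holds 4.71% of the genes measured, and no other chromosome had more than 4. They are Ndufa4l2, Cdh23, Mcu, Gamt, Shmt2, Esr1, Prep, Nxph4, Rab3ip, Dapk3, Mier2 and Atp5d, and no chromosome 10 gene fell. Hk1, Erbb3, Itga7 and Myl6b, described above as higher without passing, lie there as well. So do Tcf21, Gli1, Ptprb and Timp3, which were lower without passing. Myf5, the gene of the score with the widest range, lies on chromosome 10 too, whereas Myod1, Myog and Pax7 lie on chromosomes 7, 1 and 4. At an unadjusted p under 0.05, 24.6% of its genes were higher, against 4.27% to 9.23% of those on each of the other 19 chromosomes. This was noticed after the values were seen.

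The shift was not confined to those 12. Over the 574 chromosome 10 genes with a mean signal above 5, the median difference was 0.23, against -0.05 to 0.08 on the other chromosomes. It was 0.20, 0.19, 0.25 and 0.25 over 4 successive stretches of the chromosome that hold 143 or 144 of these genes each. The median deviation of these genes from their mean over 21 tumors was 0.36 in NPE tumor 11, 0.30 in NPE tumor 12, 0.16 in PE tumor 4 and 0.12 in PE tumor 3, and 0.03 to 0.07 in the other 3 myogenic-high tumors. In myogenic-low tumors it was between -0.20 and 0.00, so the sides did not overlap, and in the intermediate tumors between -0.13 and 0.03. The sides were chosen in part by Myf5, which lies on this chromosome, so their separation here is not independent of that choice.

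The chromosome 10 median was 0.23 with genotype as a covariate, 0.26 in NPE tumors alone, 0.16 without NPE tumors 11 and 12 and 0.12 when the sides were chosen without Myf5. Under that last choice 10 of 116 genes called higher lay on chromosome 10 (8.62%), and 13 of 238 called lower did too. Without NPE tumors 11 and 12 none of all probe sets passed (980 higher and 1130 lower unadjusted). In the fit of all 21 tumors 66 of 216 genes called higher (30.6%) and 6 of 239 called lower lay there. Chromosome 15 was also raised in NPE tumors 11 and 12, by 0.39 and 0.33, and in NPE tumors 5 (0.34) and 3 (0.24) of the intermediate and low tumors. Its median between the sides was 0.08, and 0.17 in NPE tumors alone. DNA copy number was not measured in these samples, and the cause of the shift was not tested.

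**Figure D5:**
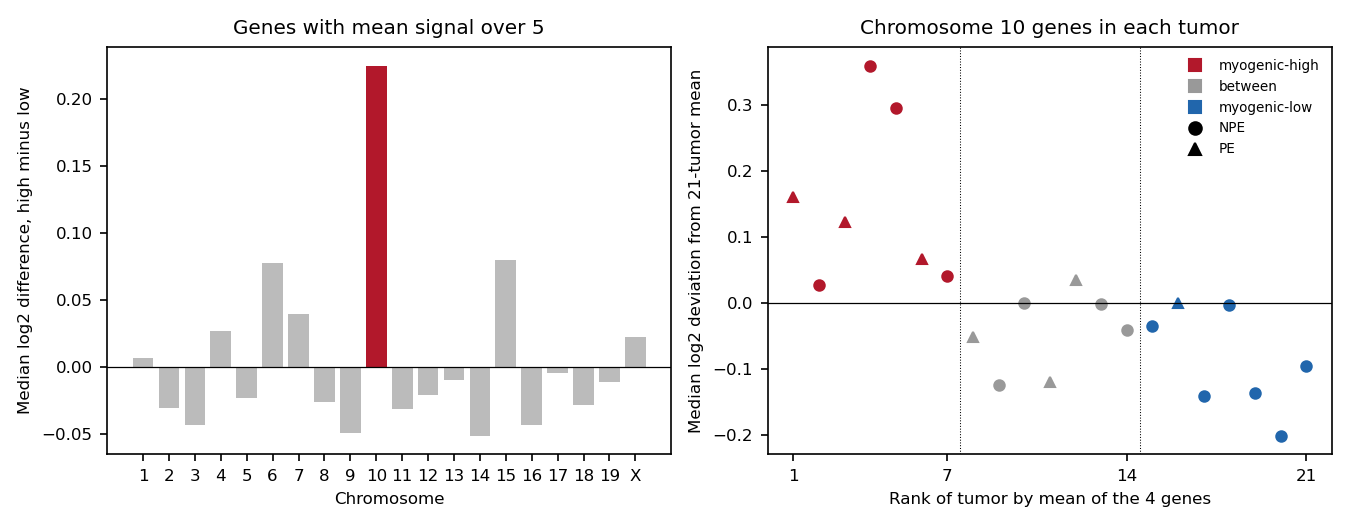
Median log2 difference between the sides for each chromosome (left, genes with a mean signal above 5) and, for chromosome 10, the median log2 deviation from the 21-tumor mean in each tumor (right, in rank order). Chromosome 10 reaches 0.23 where no other exceeds 0.08, and NPE tumors 11 and 12 have the highest chromosome 10 values.

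The 7 myogenic-low tumors did not share a single pattern. NPE tumors 1 and 2 combined the highest adipocyte means (9.59 and 9.40) with the highest Myh4 signals of the side and the lowest mitosis means (4.21 and 4.26). NPE tumors 4 and 6 had high smooth muscle means (8.74 and 8.47) and adipocyte means of 7.80 and 7.04. NPE tumor 3, lowest for every gene of the score but Pax7, was also lowest for the embryonic (6.39) and mature fibre lists (6.81), high for smooth muscle genes (8.68) and mitosis (6.55), and had the highest neutrophil mean (6.95, where the others had at most 5.43). PE tumor 7 and NPE tumor 9, nearest the limit, differed from each other: the former had few adipocyte signals (5.58) and a mitosis mean of 6.31, the latter an embryonic list mean (9.37) within the range of the myogenic-high tumors and a mitosis mean of 4.44.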

How the data were processed

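RNA of 21 tumors, 14 NPE and 7 PE, was hybridised to Affymetrix mouse arrays, 1 tumor per array. The deposited table holds log2 values that the authors made by RMA, which corrects background, normalizes arrays to each other by quantiles and summarises probes; per the labels Affymetrix Expression Console 1.1 was used. These signals are relative within the 21 arrays, so a change common to all genes would not be seen, and small differences of dim genes are compressed. The table was used as deposited. Of 28846 probe sets, 94 controls, 6546 whose IDs begin with MG and the 4 of the score were set aside, leaving 22202, of which 19568 had 1 gene symbol in the platform annotation. The probe set with the highest mean stood for a gene with several (55 genes).

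The 7 highest and 7 lowest tumors by the mean of Myod1, Myog, Myf5 and Pax7 were compared with limma 3.58.1 (lmFit and eBayes, R 4.3.3), with Benjamini-Hochberg adjustment over the 22202 and a threshold of 0.05. Because the sides were selected on measured values, a p-value is one of association with the ranking. The members and the gene lists were chosen with earlier results of these data known. For that reason a permutation test of list means that had been planned was not used, and lists are described by counts and medians. Genes were named by rule: the 4 genes of the score, the 15 with the largest difference in each direction among those past the threshold, from each list as many as 4 genes, taken by smallest p, fixed stage markers, and genes of interest in these tumors. Klhl40, the chromosome 10 genes and some, not all, of the other called genes without overlap were named after their values were seen. Genotype make-up was compared by Fisher's exact test. The fit was also run on simulated data, which had the spread of the real probe sets but independent noise. The 4 tumor numbers present on both sides did not pair tumors, with correlations of -0.10, -0.12, 0.19 and -0.17. Promoter sequences came from RefSeq (GRCm38.p6). Leaving out NPE tumors 1 and 2, 1 and 3, or 11 and 12, the adipocyte covariate and the steps through the intermediate tumors were added after seeing the data. Summaries and plots used Python 3.11.15 and matplotlib 3.10.9.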

Additional observations from a re-analysis of the deposited data

Results flagged for a closer look

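A tumor was singled out where its gap to the nearest of the other tumors of its side, as a share of the range of that side, exceeded Dixon's critical value of 0.568 for 7 values. This was tested in 296 groups of 7 tumors and met in 27. About 1 in 20 would be met by 7 values drawn alike from a normal distribution. The sides were chosen by the score, so that rate is no reference here, and genes of a list are not independent. Muscle genes vary with the score, so muscle flags of the tumor with the lowest score partly restate the ranking.

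NPE tumor 3, the tumor with the lowest score, gave 11 of these on the low side. It was lowest for Gamt (share of the range 0.782; 6.19 where the others had 6.94 to 7.15), Mef2c (0.584), Tnnt1 (0.582), Chrnd (0.651), Chrna1 (0.713), Acta1 (0.604) and Myh7 (0.596). It was also lowest for the means of the other myogenic transcription factors (0.765), the embryonic sarcomere and acetylcholine receptor genes (0.611) and neural genes (0.677), and highest for the mean of cytokines and chemokines (0.592; 6.10 where the others had 5.29 to 5.62).

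NPE tumor 7 stood apart on the high side for Fabp4 (0.607), Plin1 (0.57), Ptch1 (0.68; 9.12 where the others had 7.68 to 8.14), the adipocyte mean (0.773) and the smooth muscle mean (0.598), being highest in each. It was the only myogenic-high tumor with a low mean of Y-linked genes (0.902; 2.42 where the others had 6.32 to 6.75). Also on the high side, PE tumor 4 was highest for Pvalb (0.646) and Rrm2 (0.599), NPE tumor 13 was highest for Cd163 (0.591), and NPE tumor 11 was lowest for the Wnt pathway mean (0.632).

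On the low side, NPE tumor 1 was lowest for Hk1 (0.57) and for the means of cell cycle exit (0.576) and of EMT and invasion genes (0.573). NPE tumor 2 was highest for Hlf (0.593), NPE tumor 6 was highest for Pax3 (0.594), and PE tumor 7 was lowest for Bst2 (0.616; 5.08 where the others had 7.45 to 8.93).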

How the results depend on the processing

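The number of probe sets past the threshold, 31 higher and 19 lower, moved with nearly every choice. The direction of these 50 held under each setting below except high minus middle (49 of 50). The 50 were chosen for their difference in these same tumors, which the settings use again. A kept direction was therefore largely fixed in advance and is no separate support. Counts are given as higher and lower. No probe set passed with genotype as a covariate (1275 and 1407 at an unadjusted p under 0.05), title number ranges as a block (942 and 1073), the adipocyte mean as a covariate (815 and 894), NPE tumors only (1222 and 1571), NPE tumors 11 and 12 averaged (1228 and 1441), NPE tumors 1 and 2 left out (1318 and 1671), NPE tumors 11 and 12 left out (980 and 1130) or Welch's statistic in place of limma's (1332 and 1496). High minus middle gave 0 and 0 (825 and 547) and middle minus low 0 and 1. Counts fell to 4 and 2 with the Y-linked mean as a covariate, 4 and 5 without NPE tumors 1 and 3, 14 and 12 with a score without Myod1, 31 and 1 with a score adjusted for genotype (9 and 0 of them among the original calls), 17 and 12 with a trended robust variance and 16 and 11 with the MG probe sets included.

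Counts grew to 333 and 244 with the mature fibre mean as a covariate, 236 and 262 in the fit of 21 tumors in 3 groups, 915 and 1241 with the score as a continuous variable, 96 and 119, 128 and 261, and 273 and 237 with scores without Myog, Myf5 and Pax7 (the score without Myf5 kept 14 and 13 of the original calls), 356 and 573 for the top and bottom 5 tumors, 113 and 104 for the top and bottom 10, 334 and 432 with array weights, and 49 and 33 for probe sets above background in 7 or more tumors. Centring arrays gave 42 and 18, and normalizing by quantiles again 36 and 21. The cause of these movements was not tested.

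Leaving out 1 tumor gave 0 to 259 higher and 0 to 357 lower. None passed without PE tumor 2 or 4 or NPE tumor 2, 11 or 12 (1200 to 1423 higher unadjusted). Counts were 5 and 2 without PE tumor 3, 8 and 5, 6 and 4, and 10 and 9 without NPE tumors 6, 4 and 1, 49 and 49 without NPE tumor 7, 64 and 30 without NPE tumor 3, and 259 and 232 and 252 and 357 without NPE tumor 9 and PE tumor 7.

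With the tumor number as a replicate block, 0 and 0 passed (956 and 937 unadjusted). The tumors share only a number, so this is not a paired design.

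The number of tumors, 7 a side, limits precision. Genotype is thinly represented on the low side (1 PE tumor), so an interaction with genotype was not fitted. Site, age and sex are not in the labels, and the array does not count molecules.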
